A study of Saccharomyces cerevisiae with 21 samples.

Results

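Transcripts of ste12 and rtg3 biofilms of Saccharomyces cerevisiae were compared directly, using the 3 libraries of each mutant out of 21 libraries in 7 strain groups. The members are the samples themselves: every library titled ste12 and every library titled rtg3 was taken, and all 7126 counted features were kept for them. Every strain was a derivative of Sigma1278B, a laboratory background that forms filaments and biofilms, and each group had grown for 24 h from small spots of cells on 2% agar with galactose (YEPGal) after liquid culture in glucose medium (YEPD). The ste12 strain is labelled a mutant of Ste12, the factor which the filamentation mitogen-activated protein kinase (MAPK) pathway switches on, and the rtg3 strain a mutant of Rtg3, a transcription factor of the mitochondria-to-nucleus retrograde pathway. The labels call both mutants hypofilamentous, and the wild-type libraries of the same series, 3 in number, served only as a reference level. The labels give neither the kind of mutation nor whether a mutant is 1 clone, and do not say whether replicates were grown apart. The p-values therefore reflect library-to-library spread, which may be technical.

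Ste12 acts with Tec1 on genes of filamentous growth and, by itself or with Mcm1, on genes of mating. Signals from Msb2, Sho1 and Cdc42 pass through the kinases Ste20, Ste11, Ste7 and Kss1, and Dig1 and Dig2 hold Ste12 inactive until Kss1 relieves them. Rtg3 works as a dimer with Rtg1. When mitochondrial function is low, Rtg2 counters the inhibitor Mks1, the dimer enters the nucleus, and genes for citrate synthases, aconitase and isocitrate dehydrogenase are induced, which keeps glutamate precursors in supply.

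The mutated genes were examined first. RTG3 (chromosome II, 22076 to 23536) had 0 counts in each of the 3 rtg3 libraries and 101, 97 and 94 counts in the ste12 libraries. Set against the limit of 3 counts over the rtg3 group, the ratio was 133 with an exact 95% lower limit of 107, so RTG3 was at least 107-fold higher in ste12. The deposited names of the rtg3 libraries carry the same strain number as those of the rim101-531 libraries, another group of the series. RTG3 had 115, 134 and 109 counts in rim101-531, so the groups differ at this gene, but how the rtg3 strain relates to rim101-531 cannot be told from the labels. STE12 (chromosome VIII, 274174 to 276240) had 68, 67 and 52 counts in the ste12 libraries and 180, 131 and 205 in the rtg3 libraries. Per library size, STE12 was 2.03-fold lower in ste12 (1.59-fold with the scaling used below), with an exact 95% interval of 1.71 to 2.41 that covers counting error only. The ste12 label was therefore checked only in part, since reads on the STE12 locus remained, and whether they come from a retained piece of the gene was not tested. URA3, a gene often used as a selection marker, stood at 88.7, 80.3 and 90.5 CPM (counts scaled to library size) in ste12 and at 10.8, 18.2 and 17.8 CPM in rtg3. Expression from a marker and expression of the resident URA3 gene cannot be told apart in these counts. Of 9 tested strain construction genes, 3 were higher in ste12 and 1 in rtg3 in the test described below. The count higher in rtg3 was 2 by library totals, and its lowest value with 1 library left out was 0.

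The ste12 libraries held 2388813, 2609127 and 2396954 counts on features, and the rtg3 libraries 3306042, 2957424 and 3808773. The trimmed-mean (TMM) scaling factors were 0.900 to 0.911 in ste12 and 1.12 to 1.16 in rtg3, so the scaling moves the comparison and its effect is given with the counts. Root-mean-square log2 differences between libraries were 0.614 to 0.789 across the groups, 0.370 to 0.473 within ste12 and 0.215 to 0.310 within rtg3. The groups were farther apart than any of their own libraries, and the ste12 libraries varied more than the rtg3 libraries.

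To show the sequences on which the pathways are known to act, promoter windows of 3 retrograde genes and 3 filamentation genes are given, from 250 bases before to 50 bases within the coding start, read from the RefSeq R64 genome. The searched motifs were GTCAC (the R box bound by Rtg1 and Rtg3), TGAAACA (the pheromone response element bound by Ste12), and CATTCT and CATTCC (2 forms of the sequence bound by Tec1). Both strands were searched, matches stand in capitals, and a match to the opposite strand appears as its reverse complement. CIT2 lies on the minus strand (chrIII:122279-122578), DLD3 on the plus strand (chrV:16105-16404) and ATO3 on the minus strand (chrIV:1241982-1242281). NFG1 lies on the minus strand (chrXII:230402-230701), PGU1 on the plus strand (chrX:722565-722864) and TEC1 on the plus strand (chrII:408919-409218).
CIT2: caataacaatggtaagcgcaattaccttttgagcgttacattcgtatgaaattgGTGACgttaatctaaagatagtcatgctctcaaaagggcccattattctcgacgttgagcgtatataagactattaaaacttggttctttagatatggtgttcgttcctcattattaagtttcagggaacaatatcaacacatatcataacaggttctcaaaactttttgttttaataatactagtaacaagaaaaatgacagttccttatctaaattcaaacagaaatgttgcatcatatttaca
DLD3: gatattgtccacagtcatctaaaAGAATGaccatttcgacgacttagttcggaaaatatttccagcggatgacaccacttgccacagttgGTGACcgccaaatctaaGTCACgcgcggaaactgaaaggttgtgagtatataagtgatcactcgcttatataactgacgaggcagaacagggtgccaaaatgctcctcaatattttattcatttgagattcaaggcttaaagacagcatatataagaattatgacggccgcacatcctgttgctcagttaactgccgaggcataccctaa
ATO3: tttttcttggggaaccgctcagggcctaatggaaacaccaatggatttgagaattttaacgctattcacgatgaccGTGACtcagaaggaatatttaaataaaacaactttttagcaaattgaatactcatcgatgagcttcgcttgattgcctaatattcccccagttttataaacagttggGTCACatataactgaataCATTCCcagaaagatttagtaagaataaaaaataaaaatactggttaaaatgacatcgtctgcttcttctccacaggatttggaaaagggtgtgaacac
NFG1: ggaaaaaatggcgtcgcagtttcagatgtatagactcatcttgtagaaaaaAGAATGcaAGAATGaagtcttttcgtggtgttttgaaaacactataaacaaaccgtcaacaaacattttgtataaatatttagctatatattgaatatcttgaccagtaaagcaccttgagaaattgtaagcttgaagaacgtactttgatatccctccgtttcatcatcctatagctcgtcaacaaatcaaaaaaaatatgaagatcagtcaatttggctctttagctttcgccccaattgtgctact
PGU1: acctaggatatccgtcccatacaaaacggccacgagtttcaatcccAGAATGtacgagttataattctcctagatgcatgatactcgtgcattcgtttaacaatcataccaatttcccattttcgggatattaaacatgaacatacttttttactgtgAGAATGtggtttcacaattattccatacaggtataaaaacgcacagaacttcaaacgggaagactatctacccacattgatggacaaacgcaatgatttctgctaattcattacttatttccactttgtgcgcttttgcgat
TEC1: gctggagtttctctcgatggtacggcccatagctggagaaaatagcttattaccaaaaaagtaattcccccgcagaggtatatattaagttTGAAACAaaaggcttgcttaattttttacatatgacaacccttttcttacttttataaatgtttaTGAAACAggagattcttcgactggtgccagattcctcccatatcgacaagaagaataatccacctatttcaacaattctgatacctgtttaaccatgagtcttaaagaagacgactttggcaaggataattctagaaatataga
No 2 matches overlap in these windows. The CIT2 window holds 1 R box, at base -196 from the start. The windows of DLD3 and ATO3 hold 2 R boxes each, at -160 and -143 and at -174 and -67. TEC1, itself the gene of the partner of Ste12, has TGAAACA at -159 and -94. NFG1 has AGAATG at -199 and -191, and PGU1 has it at -204 and -92, both being CATTCT on the opposite strand. DLD3 also has CATTCT on the opposite strand at -227, and ATO3 has CATTCC at -49. Over all 6001 windows of this length, GTCAC was present in 26.4%, TGAAACA in 7.5%, CATTCT in 19.2% and CATTCC in 10.9%. Of the 9 retrograde targets, 3 windows held GTCAC (CIT2, DLD3 and ATO3), and of the 11 filamentation targets, 2 held TGAAACA (TEC1 and SVS1). CATTCT was present in 2 of the 11 filamentation targets (PGU1 and NFG1), in 3 of the 9 retrograde targets (IDH1, DLD3 and PDH1) and in 4 of the 6 genes of the methylcitrate and transporter list. TGAAACA was present in 6 of the 8 a-specific windows, which belong to STE2, STE6, BAR1, AGA2, MFA2 and AXL1. These matches describe the letters in the windows and were not tested as binding sites.

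Of 5786 tested genes, 1932 differed between ste12 and rtg3 (33.4% of those tested, adjusted p under 0.05, edgeR quasi-likelihood test with Benjamini-Hochberg adjustment). In ste12, 946 were higher (16.3%), and in rtg3, 986 were higher (17%). A difference of at least 2-fold was called for 352 genes (6.08%), of which 211 were higher in ste12 (3.65%) and 141 were higher in rtg3 (2.44%). The 3 CPM values of each group did not overlap for 2787 genes (48.2%). Differences are given as log2 of ste12 minus rtg3 with a standard error, so that a positive value means a higher level in ste12, and levels are TMM-scaled CPM with SD over 3 libraries. With library totals alone in place of TMM, 378 genes were higher in ste12 and 2762 in rtg3, and the median over all tested genes moved from -0.03 to -0.37. Small differences therefore depend on the scaling. Where library totals or a left-out library moved a list's count by over 1.5 times, that count is given with the list.

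**Figure D1:**
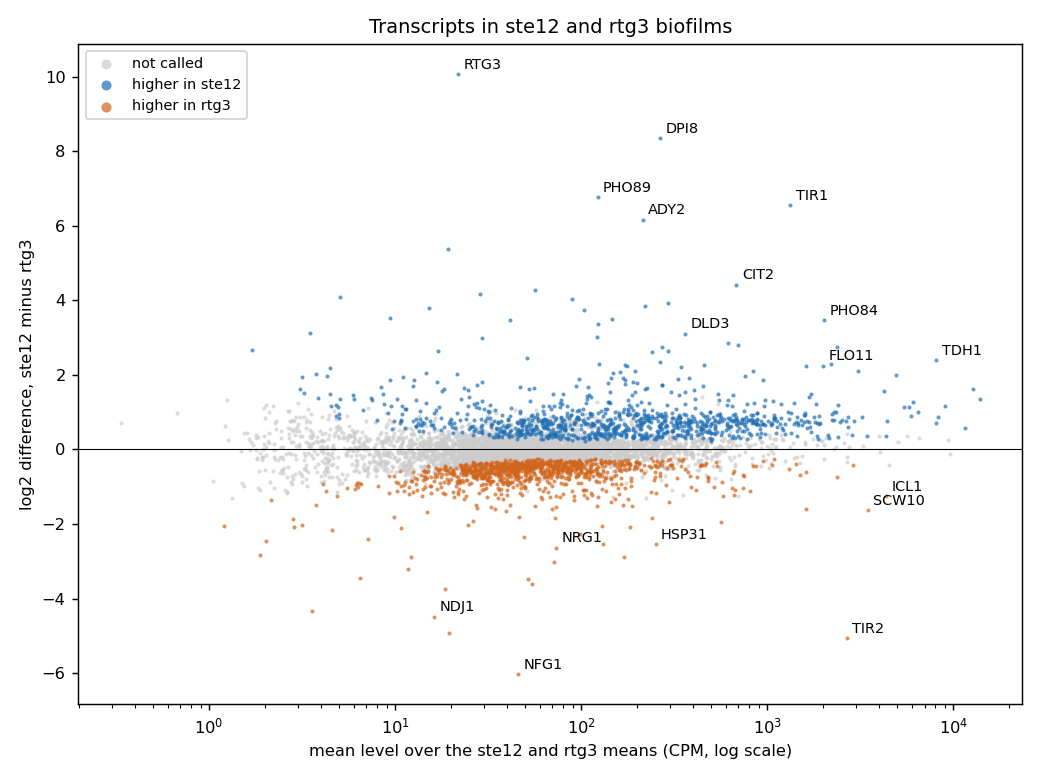
The log2 difference between ste12 and rtg3 (vertical axis) is plotted against the mean CPM of both groups (horizontal log axis) for the 5786 tested genes, with 946 genes called higher in ste12 in blue, 986 called higher in rtg3 in orange and uncalled genes in grey. RTG3, DPI8, PHO89, TIR1 and ADY2 lie highest, and NFG1 and TIR2 lie lowest.

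Filamentation targets were mostly lower in ste12, and FLO11 went the other way. Of 11 tested target genes, 7 were higher in rtg3, 2 were higher in ste12 and 2 passed in neither direction, with a median log2 difference of -0.92. NFG1 (YLR042C, chromosome XII, 229966 to 230451), a cell wall protein that restrains filamentous growth, stood at 0.919, 1.27 and 1.86 CPM in ste12 and at 81.5, 97.9 and 91.7 CPM in rtg3. The groups lay far apart, and the difference was -6.03 ± 0.32 (SE, adjusted p = 2.27e-11), or 65.1-fold higher in rtg3. Against the wild type, 9.97% of tested genes were called in ste12 and 20.5% in rtg3, and both comparisons share the wild-type libraries. The wild type had 248 ± 15.3 CPM (SD, n = 3), above both mutants, and rtg3 was lower than wild type by a log2 difference of -1.45 (adjusted p = 7.26e-06).

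PGU1 (YJR153W, chromosome X, 722815 to 723900), a secreted polygalacturonase used as a reporter of the pathway, was at 6.44, 9.35 and 6.03 CPM in ste12 and 15, 13 and 14.9 CPM in rtg3. Both mutants were far below the wild type, which had 101 ± 7.41 CPM, and rtg3 stayed above ste12 in every library. The difference was -0.97 ± 0.22 (adjusted p = 0.0033). MSB2, the mucin that senses for the pathway, was at 248, 317 and 228 CPM in ste12 and 526, 599 and 558 CPM in rtg3. The groups did not overlap, and the difference was -1.08 ± 0.12 (adjusted p = 7.74e-07). TEC1, the partner of Ste12, was at 27.1, 29.7 and 25.5 CPM in ste12 against 56.4, 48.2 and 52.0 CPM in rtg3, a difference of -0.92 ± 0.14 (adjusted p = 6.66e-05). Its levels did not overlap between the mutants and both lay below the wild type at 69.5 ± 6.02 CPM.

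KSS1, the MAP kinase of the pathway, differed by -0.87 ± 0.13 (adjusted p = 6.66e-05), with 23.0 ± 3.59 CPM in ste12 and 42.1 ± 1.96 CPM in rtg3. SVS1, a cell wall protein, differed by -1.40 ± 0.13 (adjusted p = 7.42e-08). CLN1, a G1 cyclin tied to cell elongation, was at 45, 53.1 and 56.1 CPM in ste12 and at 139, 122 and 132 CPM in rtg3, close to the 116 ± 11.4 CPM of the wild type. The CLN1 difference was -1.35 ± 0.12 (adjusted p = 3.97e-08). The cell wall gene TIP1 (-0.33 ± 0.15, adjusted p = 0.0845) and the protease gene YPS1 (0.999) did not pass, and YPS1 had a mean of 207 CPM in both groups.

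FLO11 (YIR019C, chromosome IX, 389572 to 393675), the cell surface flocculin required for biofilm mats and invasive growth, was at 3802, 3567 and 2515 CPM in ste12 and at 710, 698 and 679 CPM in rtg3. Every ste12 library was above every rtg3 library, while all 6 lay far below the wild type at 16473 ± 1892 CPM. The difference was 2.24 ± 0.14 (adjusted p = 4.41e-10), or 4.74-fold higher in ste12. Of the 50-base windows of FLO11, 28.0% recur in the genome, so a part of its reads could be placed ambiguously. Here and for every such share below, copies inside the gene itself were counted. How much is shared with other genes was not tested. HMS2, a factor of pseudohyphal growth, was the other target higher in ste12 (0.64 ± 0.11, adjusted p = 0.000218). ICR1, the long noncoding RNA upstream of FLO11, was named after its values were seen. It stood at 7.81, 8.07 and 15.8 CPM in ste12 and 15.8, 8.18 and 12 CPM in rtg3, which overlapped (-0.20 ± 0.30, adjusted p = 0.623).

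**Figure D2:**
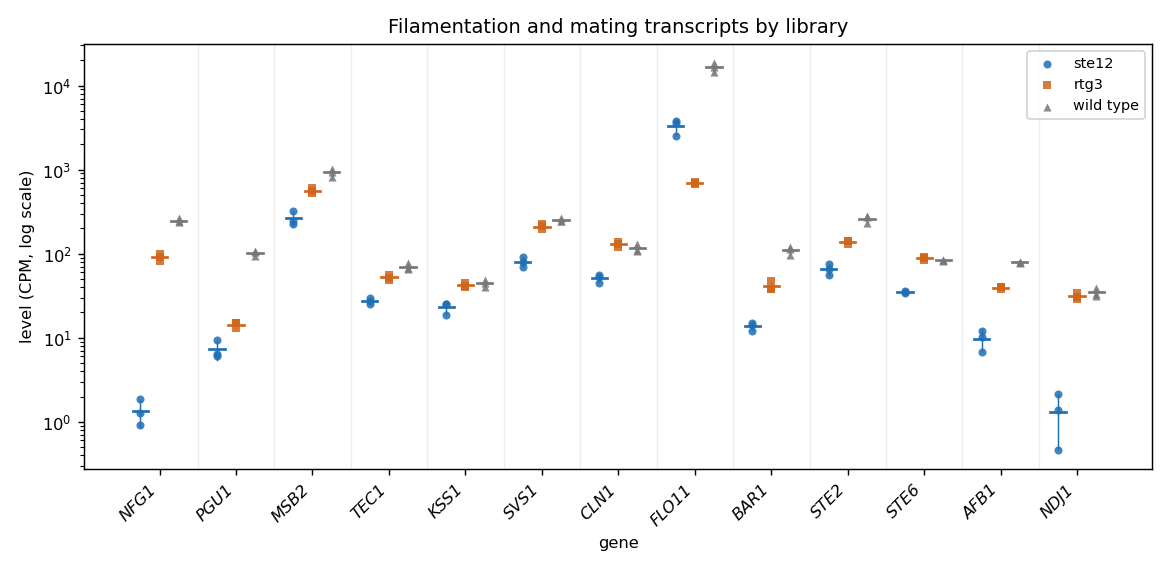
CPM on a log axis is shown for 13 filamentation and mating genes, with a point per library, a bar at the mean and a line over 1 SD for ste12, rtg3 and the wild type. FLO11 is the gene with ste12 above rtg3, at 3295 against 696 CPM on average, and NFG1 and NDJ1 are the genes nearest the bottom in ste12.

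The genes of the pathway itself leaned the same way with smaller sizes. Of 19 tested components, 11 were higher in rtg3, 1 was higher in ste12 and 7 did not pass, with a median of -0.41. Among the 11, STE12 is the mutated gene, so its direction was set by the design. MSB2, TEC1 and KSS1 are also on the target list, so the lists are not independent. By library totals, 17 were higher in rtg3 and 0 in ste12, and without rtg3 replicate 1, 7 were higher in rtg3. Besides MSB2, TEC1, KSS1 and STE12, the mating kinase gene FUS3 (-0.53 ± 0.11), the kinase gene STE11 (-0.56 ± 0.12) and OPY2, a membrane anchor of the kinase complex (-0.50 ± 0.11), were higher in rtg3. STE20 (-0.15 ± 0.17, adjusted p = 0.534), SHO1 (-0.10 ± 0.14, adjusted p = 0.587), CDC42 (0.15 ± 0.08, adjusted p = 0.168) and DIG1 (-0.28 ± 0.14, adjusted p = 0.127) did not pass. The component called higher in ste12 was the phosphatase gene MSG5, at 0.23 ± 0.09 (adjusted p = 0.0489), and its sign turned to -0.10 with library totals alone. MSG5 lost its call in 8 of 12 alternatives, with adjusted p from 0.0698 to 0.333.

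Among 16 transcription factors of filamentous growth, 6 were higher in rtg3 (10 by library totals), 2 in ste12 and 8 did not pass. NRG1, a repressor of glucose-repressed genes and of FLO11, was at 25.7, 17 and 18.6 CPM in ste12 and 145, 97.3 and 137 CPM in rtg3. No library overlapped, and the difference was -2.63 ± 0.17 (adjusted p = 4.41e-10). The wild type, at 31.1 ± 5.02 CPM, was slightly above ste12, and rtg3 exceeded it by 2.03 on the log2 scale (adjusted p = 8.02e-09). PHD1, an activator of pseudohyphal growth, was at 24.8, 18.7 and 18.1 CPM in ste12 and 71.2, 79.1 and 65.5 CPM in rtg3 (-1.81 ± 0.14, adjusted p = 1.41e-08), with the wild type at 23.1 ± 1.77 CPM. ASH1, a daughter-cell repressor that is also needed for pseudohyphal growth, was higher in ste12 (0.76 ± 0.09, adjusted p = 6.49e-06).

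Among mating genes, the a-specific set was the one mostly lower in ste12. Of 6 tested a-specific genes, 5 were higher in rtg3 and 1 did not pass, with a median of -1.20. STE6, the exporter of a-factor, was at 36.3, 34.8 and 34.3 CPM in ste12 and 83.9, 90.3 and 89.9 CPM in rtg3. Each group was tight, rtg3 was at the wild-type level of 83.4 ± 0.777 CPM, and the difference was -1.32 ± 0.08 (adjusted p = 4.17e-10). BAR1, the protease that degrades alpha-factor, differed by -1.58 ± 0.23 (adjusted p = 4.95e-05), and STE2, the alpha-factor receptor, by -1.08 ± 0.13 (adjusted p = 5.36e-06). Both were also below the wild type in rtg3, where BAR1 averaged 41.3 ± 5.17 against 109 ± 11.2 CPM and STE2 138 ± 5.98 against 262 ± 24.9 CPM. The pheromone gene MFA1 was not tested, with 6 counts in all in ste12 and 8 in rtg3.

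Of 4 tested alpha-specific genes, AFB1, which encodes a barrier to a-factor, was the 1 that passed (3 by library totals). AFB1 was at 12, 6.80 and 10.2 CPM in ste12 and 37.7, 40.3 and 40.0 CPM in rtg3 (-2.03 ± 0.20, adjusted p = 3.52e-07). It lies at 228908 to 229582 of chromosome XII, and its start faces the end of NFG1 on the same strand. The receptor gene STE3 differed by -0.14 ± 0.14 (adjusted p = 0.461) and the agglutinin gene SAG1 by -0.11 ± 0.17 (adjusted p = 0.63). Of 21 tested pheromone response genes, 4 were higher in rtg3, 1 in ste12 (MSG5) and 16 did not pass, and by library totals 12 were higher in rtg3 and 0 in ste12. The count higher in ste12 was 0 without any 1 ste12 library or rtg3 replicate 1 and 2 without rtg3 replicate 2 or 3. PRM5, a membrane protein gene, was at 7.36, 7.22 and 6.49 CPM in ste12 and 21.9, 20.6 and 25.3 CPM in rtg3 (-1.68 ± 0.21, adjusted p = 5.81e-06). The fusion gene FUS1, often the marker of this response, differed by 0.28 ± 0.11 (adjusted p = 0.0668) and was named after its values were seen. NDJ1, a telomere protein of meiosis, was at 1.38, 2.12 and 0.464 CPM in ste12 and 34.0, 30.3 and 28.7 CPM in rtg3. The wild type, at 34.6 ± 3.69 CPM, was at the rtg3 level, and the difference between the mutants was -4.48 ± 0.25 (adjusted p = 6.1e-11). Of the 22 tested genes of meiosis and sporulation, NDJ1 and the spore wall gene DIT1 were higher in rtg3 and 20 did not pass. DIT1 lost its call in 6 of 12 alternatives, with adjusted p up to 0.166. By library totals 7 of the 22 were higher in rtg3, and without ste12 replicate 3, rtg3 replicate 1 or rtg3 replicate 3 it was 1.

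Retrograde targets were higher in ste12 in 8 of 9 tested genes, with a median of 1.22, and 0 were higher in rtg3. By library totals 5 of the 9 were called. CIT2 (YCR005C, chromosome III, 120946 to 122328), the peroxisomal citrate synthase that serves as the standard reporter of the pathway, was at 1340, 1264 and 1307 CPM in ste12. In rtg3 it was at 57.8, 57.3 and 67.1 CPM. The groups lay far apart with little spread in either, and the difference was 4.42 ± 0.12 (adjusted p = 1.2e-15), or 21.4-fold. The wild type had 972 ± 118 CPM, so that ste12 was slightly above it (log2 difference 0.42, adjusted p = 0.0108) and rtg3 far below it (-4.00, adjusted p = 4.05e-15).

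DLD3 (chromosome V, 16355 to 17845), a dehydrogenase that converts 2-hydroxyglutarate, was at 593, 724 and 631 CPM in ste12 and 80.2, 74.9 and 70.9 CPM in rtg3. The difference was 3.11 ± 0.22 (adjusted p = 2.57e-09), or 8.62-fold, and the wild type lay between the mutants at 347 ± 32.6 CPM. PYC1, a pyruvate carboxylase that feeds the citric acid cycle, was at 2565, 2699 and 2448 CPM in ste12 and 1047, 1201 and 1069 CPM in rtg3 (1.22 ± 0.10, adjusted p = 1.55e-08). CIT1, the mitochondrial citrate synthase, was at 1566, 1196 and 1407 CPM against 748, 870 and 774 CPM, a difference of 0.80 ± 0.19 (adjusted p = 0.00388). These groups did not overlap either, but the sizes were far below that of CIT2. The isocitrate dehydrogenase genes IDH1 (0.73 ± 0.23, adjusted p = 0.024) and IDH2 (0.70 ± 0.20, adjusted p = 0.013) passed narrowly, and IDH1 lost its call in 5 of 12 alternatives. ACO1, aconitase, was at 2142, 1400 and 1508 CPM in ste12 and 1318, 1815 and 1415 CPM in rtg3. These values overlapped and ACO1 did not pass (0.15 ± 0.25, adjusted p = 0.67).

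The regulators upstream of Rtg3 differed little. Of 8 tested, RTG3 itself was higher in ste12, 4 were higher in rtg3 and 3 did not pass. RTG3 is the gene mutated in rtg3, so its direction was set by the design. The 4 were GRR1 (-0.46 ± 0.10), which encodes an F-box protein that targets Mks1, MKS1 (-0.44 ± 0.13), the 14-3-3 gene BMH2 (-0.41 ± 0.15) and RTG2 (-0.37 ± 0.10). BMH2 lost its call in 5 of the 6 fits without 1 library (adjusted p 0.0748 to 0.167), and without ste12 replicate 2 or ste12 replicate 3 only 2 of the 8 were higher in rtg3. RTG1, the dimer partner, averaged 41.1 ± 11.2 CPM in ste12 and 36.9 ± 0.717 CPM in rtg3 (0.16 ± 0.17, adjusted p = 0.492).

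**Figure D3:**
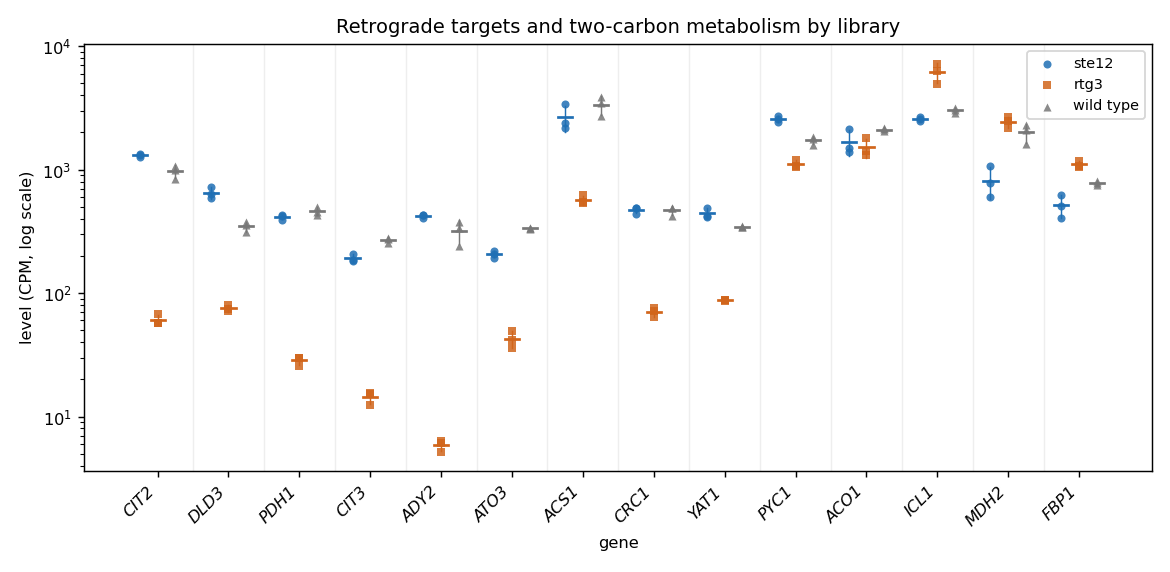
CPM on a log axis is shown by library for 14 genes of retrograde control and carbon metabolism in ste12, rtg3 and the wild type, with bars at means and lines over 1 SD. The ste12 points lie above rtg3 from CIT2 to YAT1, ACO1 overlaps, and the order is turned round for ICL1, MDH2 and FBP1.

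The methylcitrate cycle and the acetate and ammonium transporters gave the widest separation of any list examined by its median. All 6 tested genes were higher in ste12, with a median of 3.3 and a range of 2.27 to 6.16, and all 6 kept the call in every alternative. PDH1 and ATO3 are also on the retrograde target list, so the lists are not independent. PDH1, a methylcitrate dehydratase, was at 393, 430 and 418 CPM in ste12 and 25.8, 30.0 and 29.6 CPM in rtg3 (3.86 ± 0.14, adjusted p = 2.12e-13). CIT3, the mitochondrial methylcitrate synthase, was at 186, 208 and 182 CPM against 12.4, 15.2 and 15.6 CPM (3.73 ± 0.18, adjusted p = 6.74e-12). CIT3 was 13.3-fold and PDH1 14.5-fold higher in ste12, and both lie side by side on the plus strand of chromosome XVI, at 556377 to 557837 for CIT3 and 558385 to 559935 for PDH1. ICL2, the methylisocitrate lyase that completes the cycle (named after its values were seen), was at 249, 323 and 287 CPM in ste12 and 51.2, 66.7 and 60.1 CPM in rtg3 (2.27 ± 0.18, adjusted p = 1.58e-08).

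ADY2 (YCR010C, chromosome III, 132273 to 133124), an acetate transporter, was at 431, 426 and 408 CPM in ste12 and 6.07, 6.36 and 5.2 CPM in rtg3. This was 71.7-fold higher in ste12 (6.16 ± 0.26, adjusted p = 7.38e-13), with the wild type at 319 ± 70.9 CPM. Its relative ATO2 was at 1102, 1074 and 1086 CPM against 131, 173 and 143 CPM (2.87 ± 0.13, adjusted p = 1.94e-12). ATO3, tied to ammonium export, was at 219, 194 and 208 CPM against 49.0, 35.8 and 42.0 CPM (2.29 ± 0.13, adjusted p = 1.4e-10). For each of the 3 transporters the mutants did not overlap. In ste12, ADY2 did not pass against the wild type (adjusted p = 0.2), while ATO2 and ATO3 were lower than wild type by log2 differences of -0.40 and -0.70. In rtg3 all 3 transporters were lower than wild type, by -5.76, -3.27 and -2.98.

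The list of glyoxylate, gluconeogenesis and carnitine genes split. Of 15 tested genes, 7 were higher in ste12, 5 were higher in rtg3 (3 without ste12 replicate 2) and 3 did not pass. The 7 encode enzymes and carriers of acetyl groups and carnitine. CRC1, the mitochondrial carnitine carrier, was at 437, 493 and 491 CPM in ste12 and 71.7, 63.6 and 75.4 CPM in rtg3 (2.75 ± 0.10, adjusted p = 2.12e-13). The carnitine acetyltransferase genes YAT1 (2.35 ± 0.11, adjusted p = 1.94e-12) and YAT2 (1.82 ± 0.10, adjusted p = 4.36e-11) followed, with ACS1, an acetyl-CoA synthetase. ACS1 was at 3374, 2184 and 2403 CPM in ste12 and 534, 620 and 546 CPM in rtg3 (2.23 ± 0.24, adjusted p = 7.74e-07).

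The 5 genes higher in rtg3 included enzymes of the glyoxylate cycle and gluconeogenesis, named after their values were seen. ICL1, isocitrate lyase, was at 2686, 2578 and 2456 CPM in ste12 and 7141, 4941 and 6332 CPM in rtg3 (-1.25 ± 0.16, adjusted p = 6.99e-06). MDH2, the cytosolic malate dehydrogenase, was at 1060, 597 and 778 CPM against 2664, 2176 and 2471 CPM (-1.59 ± 0.25, adjusted p = 8.83e-05). FBP1, fructose-1,6-bisphosphatase, differed by -1.10 ± 0.21 (adjusted p = 0.000702). The groups did not overlap for any of these 3 genes. PCK1, phosphoenolpyruvate carboxykinase, also named after its values were seen, averaged 1853 ± 215 CPM in ste12 and 2193 ± 428 CPM in rtg3 and did not pass (-0.24 ± 0.17, adjusted p = 0.286).

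Of 11 tested genes of the citric acid cycle after isocitrate, 4 were higher in ste12, 0 in rtg3 and 7 did not pass, with a median of 0.28. The 4 were SDH3 (0.49 ± 0.16) and SDH4 (0.56 ± 0.18) of succinate dehydrogenase and LSC1 (0.53 ± 0.18) and LSC2 (0.55 ± 0.18) of succinyl-CoA ligase. With the totals none of the 4 calls stood and 3 genes of the list were higher in rtg3, and the count went to 0 without ste12 replicate 1, ste12 replicate 3, rtg3 replicate 1 or rtg3 replicate 3 and to 1 without ste12 replicate 2. KGD1, a subunit of 2-oxoglutarate dehydrogenase, had 784 ± 120 CPM in ste12 and 1073 ± 8.89 CPM in rtg3 (-0.45 ± 0.19, adjusted p = 0.0684). KGD1 passed as higher in rtg3 by library totals (adjusted p = 0.00284) and with a replicate block (0.00677). It also passed in the 6 libraries alone (0.0134) and without ste12 replicate 1 (0.0346), and in no other alternative. In peroxisomal fatty acid oxidation 4 of 16 tested genes were higher in ste12 and 1 in rtg3 (1 and 3 by library totals; in rtg3, 2 without ste12 replicate 1 and 0 without ste12 replicate 2 or 3), led by PEX11, a gene of peroxisome division (1.08 ± 0.15, adjusted p = 3.2e-05).

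Among genes of amino acid synthesis, the lysine pathway, which begins from 2-oxoglutarate, was higher in ste12 in 6 of 9 tested genes and in rtg3 in 0, with a median of 0.78. LYS9, saccharopine dehydrogenase, was at 262, 261 and 268 CPM in ste12 and 69.9, 76.1 and 65.1 CPM in rtg3 (1.91 ± 0.14, adjusted p = 4.58e-09). LYS4, homoaconitase, differed by 1.76 ± 0.19 (adjusted p = 1.37e-06), and LYS20, homocitrate synthase, by 1.19 ± 0.10 (adjusted p = 5.22e-08). Of the 50-base windows of LYS20, 37.8% recur in the genome, so reads shared with its close relative LYS21 may be missing from its counts.

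Of 12 tested glutamate and glutamine genes, 4 were higher in ste12 and 3 in rtg3 (5 by library totals). GDH3, a glutamate dehydrogenase that forms glutamate, was at 116, 158 and 155 CPM in ste12 and 40.1, 52.7 and 38.9 CPM in rtg3 (1.71 ± 0.14, adjusted p = 2.52e-08). GLN1, glutamine synthetase, was at 1414, 1650 and 1539 CPM against 808, 371 and 681 CPM (1.31 ± 0.26, adjusted p = 0.000879). The 3 higher in rtg3 belong to the use of gamma-aminobutyrate and were led by the permease gene UGA4 (-1.48 ± 0.18, adjusted p = 3.62e-06). In branched-chain synthesis 6 of 12 tested genes were higher in ste12 and 1 in rtg3, with BAT2, the cytosolic transaminase, at 825, 750 and 821 CPM against 282, 286 and 282 CPM (1.5 ± 0.11, adjusted p = 6.89e-09). That count was 2 of 12 by library totals, and the 1 higher in rtg3 was lost without ste12 replicate 2, ste12 replicate 3, rtg3 replicate 1 or rtg3 replicate 2. In arginine synthesis 3 of 10 tested genes were higher in ste12 and 2 in rtg3. By library totals, and in every fit without 1 library except ste12 replicate 1 (4 genes), 1 arginine gene was higher in ste12, and 1 was higher in rtg3 in every such fit except without rtg3 replicate 3. In sulfate assimilation 5 of 23 were higher in ste12 and 1 in rtg3, and by library totals 1 and 4. The 5 fell to 1 without ste12 replicate 2, 2 without rtg3 replicate 1 and 3 without ste12 replicate 3, rtg3 replicate 2 or rtg3 replicate 3, and the 1 was lost without ste12 replicate 2, ste12 replicate 3 or rtg3 replicate 1. No direction is given for either list. Nitrogen-controlled genes split, with 2 of 18 higher in ste12 and 5 in rtg3 (14 by library totals). The proline permease gene PUT4 was at 559, 521 and 479 CPM in ste12 and 156, 139 and 130 CPM in rtg3 (1.88 ± 0.12, adjusted p = 7.82e-10). MEP2, the ammonium permease that also signals for pseudohyphal growth, went the other way, at 67.1, 85.4 and 63.5 CPM in ste12 and 192, 157 and 172 CPM in rtg3 (-1.27 ± 0.16, adjusted p = 1e-05).

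Genes on the list of glycolysis and ethanol formation, which also holds ethanol-consuming ADH2, were mostly higher in ste12. Of 25 tested genes, 15 were higher in ste12, 0 in rtg3 and 10 did not pass, with a median of 0.59. By library totals 12 were higher in ste12 and 2 in rtg3. These genes took 12.5%, 11.7% and 12.5% of the counts in the ste12 libraries and 6.52%, 7.64% and 6.62% in the rtg3 libraries, with 8.96% ± 0.951 in the wild type. The shares did not overlap. TDH1, an isozyme of glyceraldehyde-3-phosphate dehydrogenase named after its values were seen, was at 13004, 13734 and 14080 CPM in ste12 and 2479, 2820 and 2478 CPM in rtg3 (2.39 ± 0.29, adjusted p = 4.37e-06). ADH2, the alcohol dehydrogenase that consumes ethanol, was at 4826, 4931 and 5209 CPM against 1198, 1192 and 1121 CPM (2.09 ± 0.17, adjusted p = 1.18e-08). Both mutants were below the wild type for ADH2, which had 9105 ± 71.5 CPM. FBA1, aldolase, differed by 1.16 ± 0.13 (adjusted p = 1.26e-06) and TDH2 by 2.00 ± 0.22 (adjusted p = 1.18e-06). Stretches that recur in the genome make up 31.3% of the windows of TDH2 and 14% of those of ADH2. Reads with no unique place there were not counted.

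Of 9 tested galactose genes, 4 were higher in rtg3, 0 in ste12 and 5 did not pass, with a median of -0.58. By library totals 7 were higher in rtg3, and without ste12 replicate 2, ste12 replicate 3 or rtg3 replicate 2 the count was 2. GAL10, an epimerase of galactose use, was at 2359, 1232 and 1723 CPM in ste12 and 2558, 3519 and 2856 CPM in rtg3 (-0.75 ± 0.24, adjusted p = 0.0252). Its call was lost without ste12 replicate 2 (adjusted p = 0.125), ste12 replicate 3 (0.0711) or rtg3 replicate 2 (0.101). GAL80, the repressor of Gal4, differed by -0.76 ± 0.15 (adjusted p = 0.000766). GAL1, galactokinase, named after its values were seen, was at 5314, 2660 and 3882 CPM in ste12 and 3258, 5313 and 3930 CPM in rtg3, which overlapped (-0.08 ± 0.29, adjusted p = 0.859). In ste12 the galactose genes varied by replicate, from 0.589% to 1.29% of the counts, against 1.25% to 1.82% in rtg3.

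Of 12 tested hexose transporter genes, 4 were higher in ste12 and 2 in rtg3 (4 by library totals). HXT2, a high-affinity glucose transporter, was at 264, 275 and 269 CPM in ste12 and 28.2, 14.2 and 27.6 CPM in rtg3 (3.51 ± 0.49, adjusted p = 2.4e-05). The wild type was variable, at 68.7 ± 49.4 CPM. HXT6 differed by 2.11 ± 0.15 (adjusted p = 1.87e-09), but 95.1% of its windows recur in the genome and HXT7 is nearly identical. Reads with no unique place were not counted, so the value rests on the few stretches left. HXT7 was not tested, with 4 counts in ste12 and 2 in rtg3. HXT13, at 4.09 ± 1.93 CPM in ste12 and 17.5 ± 2.94 CPM in rtg3, was higher in rtg3 (-2.09 ± 0.47, adjusted p = 0.00259).

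Genes of the cell surface held large changes in both directions. TIR1 (chromosome V, 175248 to 176012) and TIR2 (chromosome XV, 346195 to 346950) encode related serine- and alanine-rich cell wall mannoproteins induced by cold and low oxygen. TIR1 was at 3358, 1764 and 2790 CPM in ste12 and 29.5, 26.1 and 28.9 CPM in rtg3, which is 93.4-fold higher in ste12 (6.54 ± 0.32, adjusted p = 6.68e-12). TIR2 was at 180, 148 and 140 CPM in ste12 and 4778, 5825 and 4994 CPM in rtg3, which is 33.3-fold higher in rtg3 (-5.06 ± 0.18, adjusted p = 1.02e-13). The wild type stood at 856 ± 358 CPM for TIR1 and 59.0 ± 8.87 CPM for TIR2, so rtg3 was far below it for the one and far above it for the other. Of the TIR1 windows, 13% recur in the genome, and the fate of reads shared between the TIR genes was not tested. TIR4, which lies next to TIR2 at 344335 to 345798, was at 2236, 1327 and 1428 CPM in ste12 and 663, 816 and 682 CPM in rtg3 (1.21 ± 0.21, adjusted p = 0.000245). Of 13 tested genes of the low-oxygen list, 5 were higher in ste12, 2 in rtg3 and 6 did not pass, with a median of 0.32. The 2 higher in rtg3 were 4 by library totals and 1 without ste12 replicate 2, ste12 replicate 3, rtg3 replicate 2 or rtg3 replicate 3. The members named after their values were seen, TIR3 (0.32 ± 0.19, adjusted p = 0.199) and DAN4 (0.19 ± 0.17, adjusted p = 0.401), did not pass, and DAN1 did (0.48 ± 0.15, adjusted p = 0.0211), with the same call in 7 of 12 alternatives.

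Of 35 tested cell wall genes, 19 were higher in ste12, 5 in rtg3 and 11 did not pass, with a median of 0.35. With library totals alone these counts were 8 and 9, and without rtg3 replicate 3, 12 were higher in ste12. UTR2, a chitin transglycosylase, was at 175, 272 and 199 CPM in ste12 and 23.7, 27.6 and 28.9 CPM in rtg3 (3.01 ± 0.16, adjusted p = 2.27e-11), with ste12 at the wild-type level of 225 ± 23.0 CPM. CWP1, a mannoprotein, was at 71.3, 35.3 and 50.6 CPM against 6.33, 6.97 and 6.32 CPM (2.99 ± 0.24, adjusted p = 1.58e-08), and both lay below the wild type at 236 ± 41.3 CPM. GAS5, a glucan-elongating enzyme, differed by 1.20 ± 0.11 (adjusted p = 6.04e-08). SCW10, a glucanase-like wall protein, was turned round, at 1873, 1663 and 1559 CPM in ste12 and 5395, 5202 and 5164 CPM in rtg3 (-1.63 ± 0.10, adjusted p = 4.61e-10). The wild type lay between the mutants for SCW10, at 3158 ± 273 CPM. Of 9 tested flocculins and adhesins, FLO11 was higher in ste12, while FLO1 (-0.59 ± 0.17, adjusted p = 0.0156), AGA1 (-0.61 ± 0.22, adjusted p = 0.0375) and AGA2 (-1.48 ± 0.35, adjusted p = 0.0036) were higher in rtg3. The call on FLO1, with 53.8% of its windows repeated inside or outside the gene, was lost in 4 of 12 alternatives. AGA1 lost its call in each of the 6 fits without 1 library (adjusted p 0.0572 to 0.133). By library totals 6 of the 9 were higher in rtg3, without ste12 replicate 2 or rtg3 replicate 1 it was 1, and without rtg3 replicate 3, 2 were higher in ste12.

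**Figure D4:**
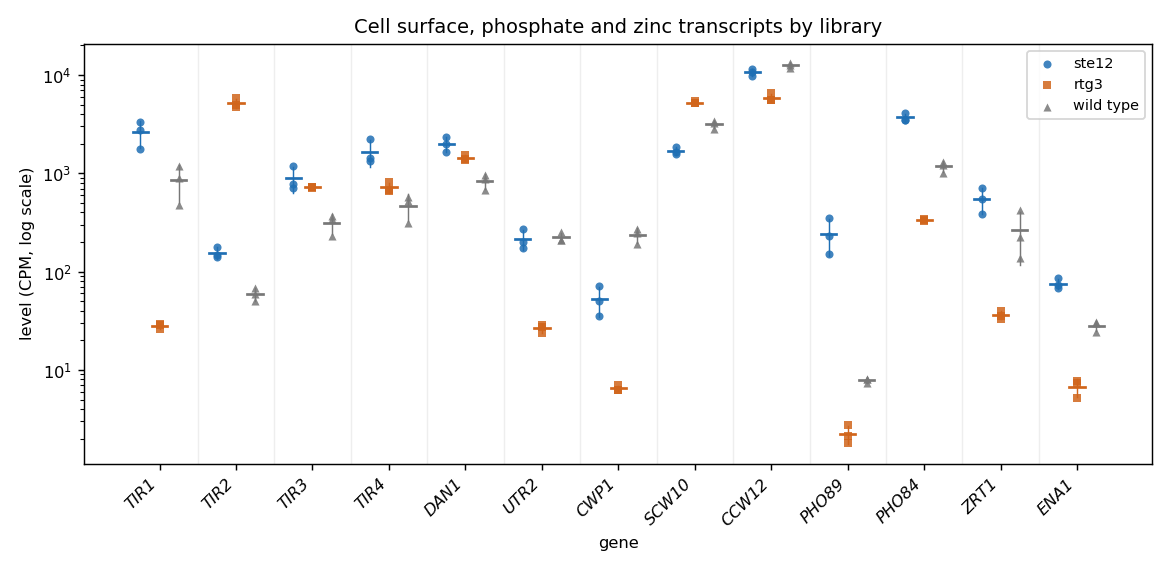
CPM on a log axis is shown by library for 13 genes of the cell surface and of phosphate, zinc and sodium transport in ste12, rtg3 and the wild type, with bars at means and lines over 1 SD. TIR1 and TIR2 have opposite orders, at 2637 against 28.2 CPM and at 156 against 5199 CPM for ste12 against rtg3, and the phosphate transporters PHO89 and PHO84 lie above the wild type in ste12 and below it in rtg3.

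Phosphate genes were higher in ste12 in 12 of 17 tested genes and in rtg3 in 0, with a median of 0.97, and library totals alone left 9 and 1. PHO84, the high-affinity phosphate transporter, was at 3523, 4090 and 3489 CPM in ste12 and 326, 334 and 344 CPM in rtg3 (3.47 ± 0.14, adjusted p = 5.8e-13). PHO89, a sodium-coupled phosphate transporter (chromosome II, 796798 to 798522), was at 348, 153 and 228 CPM against 2.11, 2.73 and 1.81 CPM, which is 109-fold (6.77 ± 0.46, adjusted p = 1.2e-09). The wild type had 1178 ± 149 CPM of PHO84 and 7.84 ± 0.445 CPM of PHO89. VTC1 (1.46 ± 0.11, adjusted p = 2.75e-09) and VTC3 (1.05 ± 0.12, adjusted p = 1.59e-06), subunits of the vacuolar polyphosphate complex, were also higher in ste12. PHO5, the secreted acid phosphatase named after its values were seen, differed by 0.36 ± 0.18 (adjusted p = 0.132).

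ZRT1, the high-affinity zinc transporter, was at 382, 713 and 552 CPM in ste12 and 39.6, 35.8 and 33.0 CPM in rtg3 (3.93 ± 0.48, adjusted p = 4.71e-06). The wild type, at 263 ± 145 CPM, varied widely. Of 11 tested genes of the zinc regulator Zap1, 4 were higher in ste12 and 1 in rtg3. By library totals these counts were 2 and 2, without ste12 replicate 1 they were 2 and 1, and without any 1 other library 0 were higher in rtg3. The sodium pump gene ENA1 was at 73.6, 85.4 and 68.2 CPM in ste12 and 7.65, 5.15 and 7.45 CPM in rtg3 (3.46 ± 0.17, adjusted p = 9.39e-12), and ENA5 differed by 4.28 ± 0.18 (adjusted p = 8.53e-13). These pumps are near-identical copies, and 88.5% and 91.2% of their windows recur in the genome. Their values rest on the stretches left, and whether the copies differ separately was not tested. Of 22 tested iron genes, 7 were higher in ste12 and 2 in rtg3, and by library totals 4 and 7. The 7 fell to 4 without ste12 replicate 2, rtg3 replicate 2 or rtg3 replicate 3, and the 2 to 1 without ste12 replicate 1, rtg3 replicate 1 or rtg3 replicate 3. FIT2, a wall protein that holds siderophores, was at 393, 1087 and 794 CPM in ste12 and 220, 85.2 and 171 CPM in rtg3 (2.25 ± 0.44, adjusted p = 0.000896). DPI8 (YJL133C-A, chromosome X, 159623 to 159847), a short open reading frame, was at 488, 549 and 545 CPM in ste12 and 0.791, 3.03 and 1.13 CPM in rtg3. This was 327-fold higher in ste12 (8.35 ± 0.22, adjusted p = 1.19e-15), with the wild type at 353 ± 36.6 CPM.

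Stress genes did not move as a block. Of 31 tested genes of the general stress factors Msn2 and Msn4, 8 were higher in ste12, 9 in rtg3 and 14 did not pass, with a median of -0.46. The 9 were 16 by library totals and 5 without ste12 replicate 2. DDR48, a stress-induced gene, was at 12.4, 6.37 and 6.03 CPM in ste12 and 106, 92.1 and 104 CPM in rtg3 (-3.60 ± 0.34, adjusted p = 1.62e-07). ALD4, the mitochondrial aldehyde dehydrogenase, went the other way, at 3047, 4243 and 3643 CPM against 719, 809 and 714 CPM (2.29 ± 0.11, adjusted p = 1.01e-11). HOR7 (2.07 ± 0.19, adjusted p = 1.14e-07) and the glycerol phosphatase gene GPP2 (1.72 ± 0.14, adjusted p = 2.11e-08) were also higher in ste12. Of 27 tested heat shock and chaperone genes, 11 were higher in ste12 and 3 in rtg3 (5 and 6 by library totals). HSP31, a methylglyoxalase and chaperone, was at 81.8, 65.0 and 73.3 CPM in ste12 and 375, 487 and 424 CPM in rtg3 (-2.55 ± 0.12, adjusted p = 3.54e-12). Its relatives HSP33 (-3.73 ± 0.26) and SNO4 (-4.92 ± 0.43) had the same sign, but 76.4% and 77.4% of their windows recur in the genome. Their values rest on the stretches left, and whether they differ separately was not tested. SSA3, an Hsp70 gene, differed by 1.70 ± 0.17 (adjusted p = 2.21e-07).

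Of 20 tested genes of trehalose and glycogen, 7 were higher in rtg3, 0 in ste12 and 13 did not pass, with a median of -0.68. GLG2, a glycogenin that primes glycogen, was at 39.1, 34.0 and 30.6 CPM in ste12 and 110, 102 and 101 CPM in rtg3 (-1.59 ± 0.16, adjusted p = 2.71e-07). By library totals the count was 17. It was 11 without ste12 replicate 1, 3 without ste12 replicate 2, ste12 replicate 3 or rtg3 replicate 2, and 4 without rtg3 replicate 1 or 3. Ribosome biogenesis genes were higher in ste12 in 13 of 57 tested genes and in rtg3 in 0, with a median of 0.76, and this count ran from 2 to 50. It was 36 without ste12 replicate 1, 2 without ste12 replicate 2 or rtg3 replicate 2, 5 without ste12 replicate 3 or rtg3 replicate 3, and 8 without rtg3 replicate 1. The ste12 replicates differed in this list, which took 0.715%, 1.34% and 1.03% of their counts, against 0.811%, 0.579% and 0.763% in rtg3. The shares overlapped, and ste12 replicate 1 lay below rtg3 replicates 1 and 3. Of 34 tested genes of the respiratory chain and ATP synthase, 6 were higher in ste12 and 0 in rtg3, and of 66 mitochondrial ribosomal protein genes, 8 and 0. With library totals alone those counts were 0 and 3, and 0 and 12, so no direction is given for either list. Without ste12 replicate 2, ste12 replicate 3, rtg3 replicate 1 or rtg3 replicate 3 the respiratory count was 3 and the ribosomal protein count 3 or 4.

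Of 12 tested cyclin genes, 4 were higher in rtg3 (8 by library totals), 0 in ste12 and 8 did not pass. PCL1, a G1 cyclin of Pho85, was at 53.3, 54.4 and 56.1 CPM in ste12 and 145, 120 and 123 CPM in rtg3 (-1.24 ± 0.12, adjusted p = 3.07e-07), and joined CLN1 as the pair with a difference of over 2-fold. Of 10 histone genes, 3 were higher in rtg3, all 10 by library totals, and 1 without ste12 replicate 2 or any 1 rtg3 library. Of 27 tested ergosterol genes, 5 were higher in ste12 and 2 in rtg3, and by library totals 3 and 5. Without rtg3 replicate 2 the 5 were 3, and the 2 were 0 without ste12 replicate 3 and 1 without ste12 replicate 2 or any 1 rtg3 library. The remaining genes among the 15 largest differences in each direction were CSS1 (4.03 ± 0.27) and the protease gene YPS6 (3.78 ± 0.47), both higher in ste12, and 6 higher in rtg3. These 6 were SMP1 (-3.47 ± 0.17), a MADS-box factor, the enolase relative ERR3 (-3.22 ± 0.45), SRD1 (-3.01 ± 0.20), RIM8 (-2.54 ± 0.16), an arrestin of the alkaline pH pathway, the old yellow enzyme gene OYE3 (-2.35 ± 0.22) and MNN14 (-2.27 ± 0.21). In ERR3, 64.1% of the windows recur inside or outside the gene, and in CSS1, 17.3%.

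**Figure D5:**
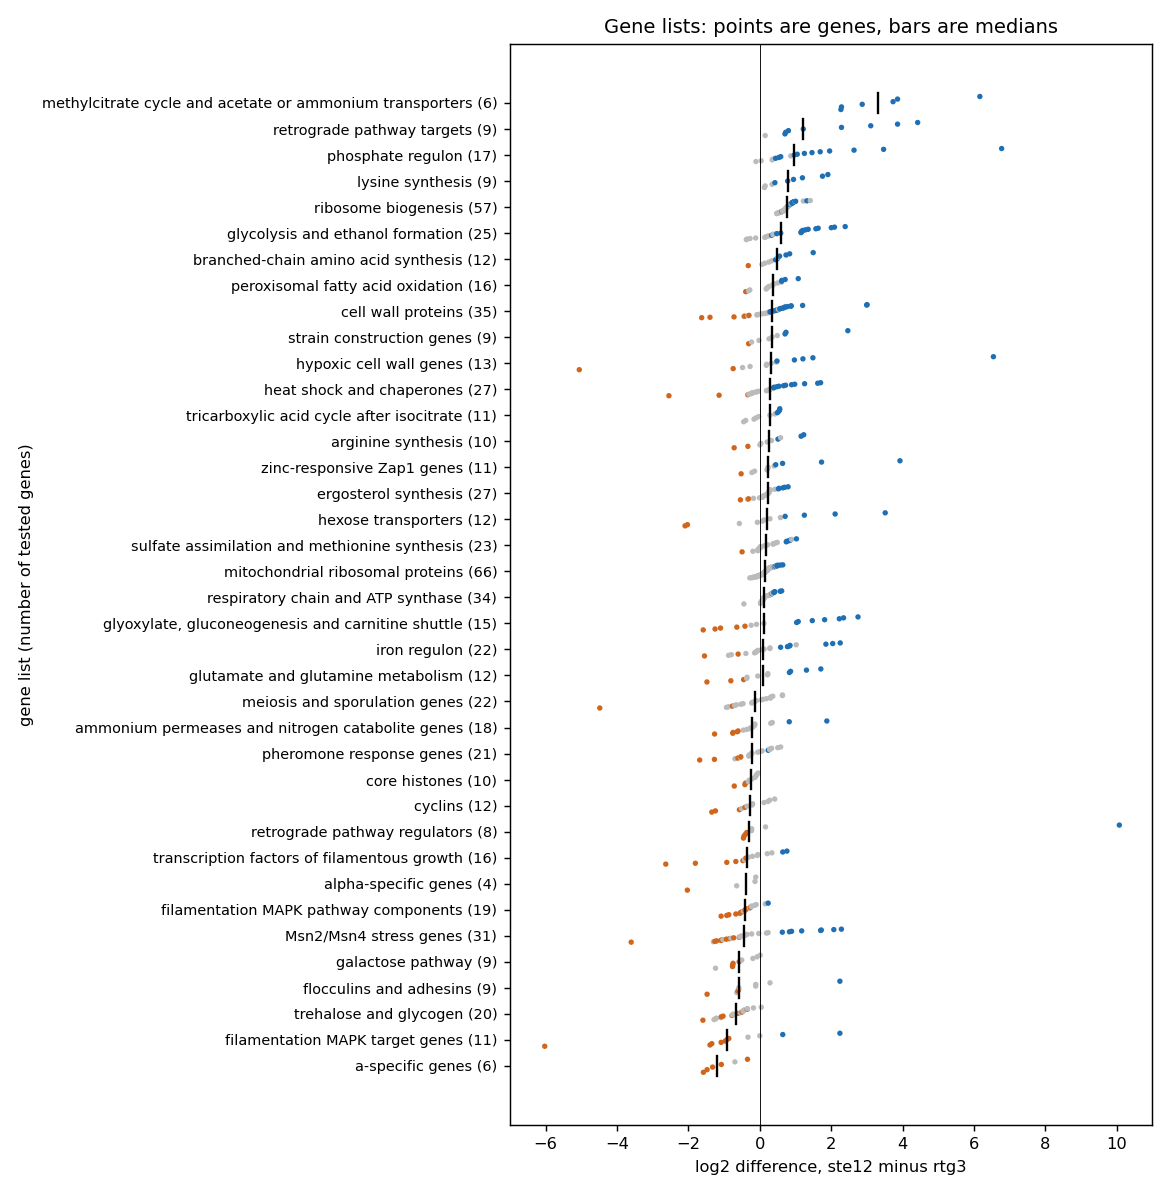
Each point is a tested gene and each black bar the median of a list, with the log2 difference of ste12 minus rtg3 on the horizontal axis and the 38 gene lists on the vertical axis, each with its number of tested genes. Blue points were called higher in ste12 and orange points higher in rtg3. The medians run from 3.3 for the methylcitrate cycle and transporters down to -1.20 for the a-specific genes, against -0.03 over all tested genes.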

How the data were processed

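Polyadenylated RNA was sequenced from 21 biofilm libraries. Per the submitters' processing notes, the authors used bcl2fastq, TopHat2 2.0.19, HTSeq 0.6.1 and the R64 build, and deposited a raw count per gene for each library. No source used here gives the strand setting. Rows that name no gene were left out. In the ste12 and rtg3 libraries, 40.1% to 42.4% of records fell on no feature, including 18.6% to 21.1% that had no unique place, which thins the reads of repeated genes. Depth on features was 2388813 to 3808773 counts, and intervals cover counting error only.

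Of 7126 features, 6048 matched a RefSeq locus tag, which gave symbols and coordinates. In R 4.3.3, edgeR 4.0.16 (limma 3.58.1) was run on the deposited counts: low-count filter by group (5786 genes kept), TMM scaling, one mean per group over all 21 libraries, quasi-likelihood test, 2-sided, Benjamini-Hochberg adjustment over all tested genes, threshold 0.05. Comparisons with the wild type share its 3 libraries and the mutants, so they are given side by side only. The fit was run on simulated counts with the same spread setting for every gene. It recovered 86 of 100 genes changed by a log2 of 1 and 100 of 100 changed by 2, with 5 false calls. Fewer genes were changed there than were called here, and the spread was uniform, so the simulation does not vouch for the calls in these data. The alternatives were DESeq2 1.42.0, its size factors in edgeR, library totals alone, no filter, a replicate block, the 6 libraries alone and leaving out each replicate.

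Named genes are STE12, RTG3, FLO11 and PGU1, the 15 largest non-overlapping differences in each direction with a mean of at least 50 counts in the higher group, up to 4 members of each list by smallest p, and any tested member of the lists of filamentation targets and components, retrograde regulators and targets, the citric acid cycle after isocitrate, and a- and alpha-specific genes. Others are said to be named after their values were seen. The comparison, gene lists and motifs were chosen with earlier results of these data known. Lists are described by counts and medians, with no test of a list.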

Additional observations from a re-analysis of the deposited data

How the results depend on the processing

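Scaling by library totals alone moved every count of calls: 3140 genes were changed, 378 higher in ste12 and 2762 higher in rtg3, and at least 2-fold differences were called for 543 genes, 120 higher in ste12 and 423 higher in rtg3. Of the 1932 genes first called, 1364 were called there. MSG5 changed sign, to -0.10 (adjusted p = 0.333). The Wald test of DESeq2 called 1931 genes, edgeR with the size factors of DESeq2 1914, edgeR without a filter 1891 and the 6 libraries alone 1985. Leaving out 1 library in turn gave 1276 (without ste12 replicate 2) to 2023 changed genes, 618 to 948 higher in ste12, 658 to 1075 higher in rtg3, and 308 to 507 with at least a 2-fold difference (181 to 300 higher in ste12, 127 to 207 higher in rtg3). A replicate block called 2326 genes. Same-numbered ste12 and rtg3 libraries deviated apart (correlations -0.274, -0.310 and -0.0532), so they did not shift together as a block assumes. The block was therefore kept as an alternative only. With crossed numbers the correlation was 0.292 for ste12 replicate 1 with rtg3 replicate 2. It was 0.258 for ste12 replicate 2 with rtg3 replicate 1. A pattern by replicate number is still visible, since replicates 1 and 2 were the least alike pair in every group of the series. In replicates 1, 2 and 3, galactose genes took 1.10%, 0.664% and 0.924% of the wild-type counts. They took 1.29%, 0.589% and 0.880% in ste12, and the order was turned round in rtg3, at 1.25%, 1.82% and 1.46%. The source of this pattern was not tested. Of 166 called named genes, 117 kept their call in every alternative. In the 100 bases before the start in place of 300-base windows, TGAAACA was present in 2.35%, CATTCT in 4.77%, CATTCC in 2.38% and GTCAC in 7.5% of the 6001 promoters. The cause of these shifts was not tested, apart from the shorter window, which holds fewer bases. At this depth, genes of a few counts, such as MFA1 and DAL80, were not tested.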

Other observations

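Further genes were chosen after their values were seen, and those in this paragraph and the next kept their call in the 12 alternatives. The first 6 concern amino acid uptake and breakdown and were all higher in ste12. DIP5, a permease of dicarboxylic amino acids, was at 1118, 1330 and 1163 CPM in ste12 and 343, 250 and 332 CPM in rtg3 (1.96 ± 0.11, adjusted p = 5.58e-11). The glutamine permease gene GNP1 (1.77 ± 0.17, adjusted p = 1.33e-07), TAT1 (1.54 ± 0.13, adjusted p = 1.82e-08) and BAP2 (1.32 ± 0.08, adjusted p = 2.31e-10) had the same sign. ARO9, an aromatic aminotransferase, was at 270, 319 and 284 CPM against 61.4, 64.6 and 58.3 CPM (2.24 ± 0.18, adjusted p = 9.79e-09), and ARO10, a decarboxylase of the same route, differed by 1.65 ± 0.14 (adjusted p = 2.23e-08). None of these 6 genes passed the same test between ste12 and the wild type (adjusted p 0.554 to 0.981). Of all tested genes, 9.97% passed there, so a missing call is the common outcome and does not set these genes apart. SUC2, invertase, was at 311, 735 and 469 CPM in ste12 and 84.9, 83.0 and 77.0 CPM in rtg3 (2.63 ± 0.28, adjusted p = 1.03e-06), and the wild type had 1002 ± 442 CPM.

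A pair of mitochondrial carrier genes picked in the same way was higher in ste12. MPC2, a subunit of the pyruvate carrier, was at 504, 632 and 675 CPM against 205, 192 and 201 CPM (1.60 ± 0.19, adjusted p = 3.08e-06), and YHM2, a citrate and oxoglutarate carrier, differed by 1.53 ± 0.13 (adjusted p = 3.25e-08). CMK2, a calmodulin-dependent kinase, was at 555, 552 and 596 CPM in ste12 and 126, 114 and 127 CPM in rtg3 (2.21 ± 0.13, adjusted p = 2.27e-10), and the wild type, at 142 ± 27.3 CPM, was near rtg3. The 3 autophagy genes picked were higher in rtg3. ATG9 differed by -1.22 ± 0.17 (adjusted p = 3.07e-05), ATG7 by -1.29 ± 0.32 (adjusted p = 0.00514) and ATG39 by -1.21 ± 0.24 (adjusted p = 0.00104). URA1, dihydroorotate dehydrogenase, was at 189, 278 and 231 CPM in ste12 and 993, 765 and 942 CPM in rtg3 (-1.95 ± 0.25, adjusted p = 7.79e-06), and RIB4, of riboflavin synthesis, differed by -1.32 ± 0.14 (adjusted p = 9.22e-07). Both were highest in the wild type, at 1357 ± 31.7 and 373 ± 38.8 CPM. URA3, the possible selection marker described above, was instead higher in ste12, and whether the URA1 difference depends on it was not tested.

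RIM8, NRG1, SMP1 and DIT1 are known as genes that the alkaline pH factor Rim101 represses, and the 4 were picked for this after their values were seen. All 4 were called higher in rtg3 than in ste12, but DIT1 (adjusted p = 0.0316) lost its call in 6 of 12 alternatives, with adjusted p from 0.0529 to 0.166. The series also holds 3 libraries of the rim101-531 strain, whose deposited names carry the same strain number as the rtg3 libraries. How these strains are related was not tested, and the values in rtg3 should be read with that. RIM8 averaged 222 ± 13.8 CPM in rtg3, 38.2 ± 2.15 in ste12, 120 ± 6.56 in the wild type and 72.2 ± 10.1 in rim101-531. SMP1 averaged 95.1 ± 5.57 CPM in rtg3, 8.52 ± 1.02 in ste12, 8.44 ± 2.00 in the wild type and 16.9 ± 2.61 in rim101-531. NRG1 averaged 30.1 ± 0.808 CPM in rim101-531, near the wild type. RIM101 itself was at 217, 221 and 218 CPM in rtg3 and 178, 244 and 213 CPM in ste12, which overlapped.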
